A study of Mus musculus with 9 samples.

Results

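The canonical histone genes of the mouse lie in 4 groups, called Hist1 to Hist4, on chromosomes 13, 3, 11 and 6, and encode the linker histone H1 and the core histones H2A, H2B, H3 and H4. All protein-coding genes whose GENCODE M21 symbol begins with Hist1h, Hist2h, Hist3h or Hist4 were taken, which gave 64 of the 41128 genes of the deposited count table. A further 3 genes with such a symbol in the annotation were not analysed here. The 64 comprise 6 H1, 18 H2A, 15 H2B, 12 H3 and 13 H4 genes. Expression was measured by RNA sequencing of dissected dorsal telencephalon, the source of the cerebral cortex and hippocampus, from newborn mice (postnatal day 0) of strain B6:129SF2/J. There were 3 libraries labelled TCF4 knockout (KO), 3 labelled TCF4 heterozygote (Het) and 3 labelled wild type (WT), against which KO and Het were set. No other allele or agent is named in the labels, which also do not say whether a library holds 1 pup, so p-values cover only the spread among the libraries. KO, Het and WT below stand for libraries so labelled.

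Most canonical histone genes are switched on in S phase, when new DNA has to be packaged, and their mRNAs are unusual in having no poly(A) tail. They end instead just after a conserved stem-loop, which is bound by the protein SLBP and set for cleavage by the U7 small nuclear ribonucleoprotein. A subset also makes longer, polyadenylated transcripts that read past the stem-loop, which are known from differentiated and non-dividing cells. A kit that selects poly(A) RNA sees mainly such transcripts. Selection of RNA by poly(A) was not given in the sources used here.

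The stem-loop was searched on the sense strand of the annotated transcripts as a pattern of 16 letters, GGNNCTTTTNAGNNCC, in which N is any base and which is also the consensus of the matches. It was found in 42 of the 64 histone genes, against 36 of 21887 other protein-coding genes (0.164%). The sequences are shown because they mark where a canonical histone mRNA ends, so that annotated bases beyond them belong to the longer kind of transcript. They are written 5′ to 3′ from GENCODE M21 transcripts (build mm10), with the 4-base loop in capitals.
Hist1h1c (chr13:23739512-23739527, plus strand): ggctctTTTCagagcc
Hist3h2ba (chr11:58949349-58949364, plus strand): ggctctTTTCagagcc
Hist1h4i (chr13:22040966-22040981, minus strand): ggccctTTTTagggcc
Hist1h4d (chr13:23581950-23581965, plus strand): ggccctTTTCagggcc
Hist1h3c (chr13:23745047-23745062, minus strand): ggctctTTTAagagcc
The stem divided the classes. All 31 H1, H2A, H2B and H3 genes with a match had the stem of Hist1h1c, and all 11 H4 genes had another one, either that of Hist1h4i or ggtcctTTTCaggacc. The form seen in Hist1h1c, with a TTTC loop, was the commonest, at 24 genes. The other 22 histone genes had no match in an annotated transcript. Their annotated transcripts include short ones, such as that of Hist1h2ai at 393 bases, and no match says only that these letters were not in the annotated transcript.

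Histone reads were scarce. The 64 genes together took 0.0147% to 0.0175% of the counts in KO libraries, 0.0144% to 0.0190% in Het libraries and 0.00926% to 0.0103% in WT libraries. Library totals ran from 26355671 to 29445788 counts in KO, 24008445 to 29398411 in Het and 22291940 to 23813314 in WT. Counts are also given as CPM, counts scaled to a common library size with trimmed-mean (TMM) factors, and levels are compared between genes as FPKM, counts scaled to gene length and library total. A gene entered the test when enough libraries reached about 10 reads (0.379 CPM in 3 libraries), and 14 histone genes did so. Of the 50 others, 8 had no read in any library.

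**Figure D1:**
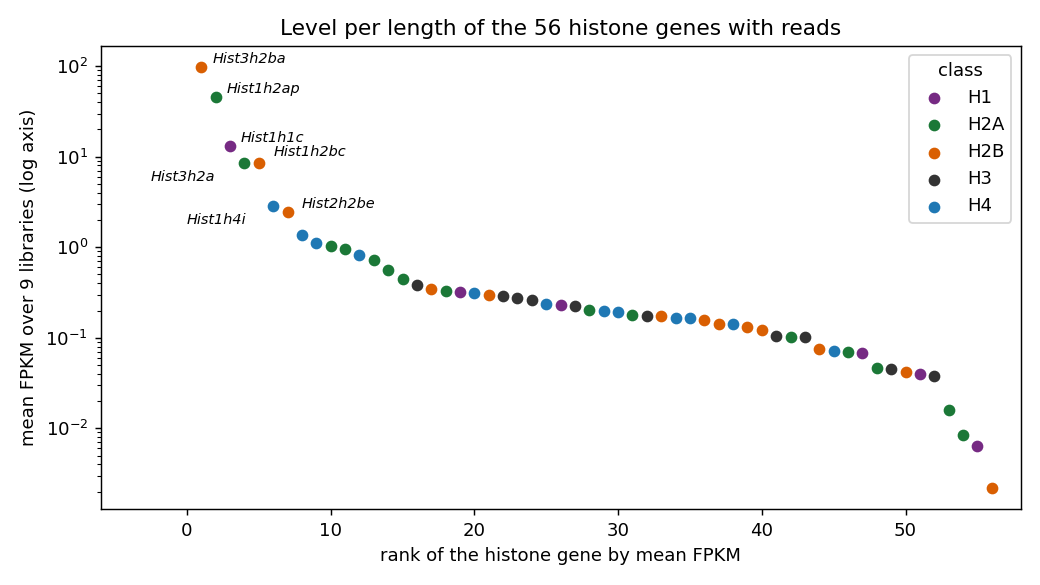
Mean FPKM over the 9 libraries (log axis) of the 56 histone genes with at least 1 read, ranked and coloured by histone class. Hist3h2ba stands at 98.0 FPKM and the curve drops to 1.36 FPKM at the eighth gene.

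The level per length, as counted, fell steeply across the family, where reads of genes with many shared words may be missing. Hist3h2ba, an H2B gene, was first, with 108 ± 8.8 FPKM in KO, 107 ± 14 FPKM in Het and 79.1 ± 5.7 FPKM in WT (SD, n = 3 each). The H2A gene Hist1h2ap followed at 47.9 ± 15, 49.8 ± 6.6 and 39.4 ± 7.3 FPKM in KO, Het and WT. The linker gene Hist1h1c was next over all libraries, at 14.5 ± 1.7 FPKM in KO, 22.2 ± 4.4 FPKM in Het and 2.56 ± 0.053 FPKM in WT. Hist3h2a and Hist1h2bc followed at means of 8.59 and 8.52 FPKM over the 9 libraries, and in KO their levels of 9.92 ± 0.61 and 10.7 ± 1.3 FPKM lie within 1 SD of each other. Hist1h4i, at 2.84 FPKM, was the highest H4 gene and Hist2h3c2, at 0.386 FPKM, the highest H3 gene. The 6 genes with most reads (Hist3h2ba, Hist1h2ap, Hist1h1c, Hist3h2a, Hist2h2be and Hist1h2bc) held 92.5% to 93.4% of the histone counts in KO, 93.3% to 94.3% in Het and 93.6% to 94.5% in WT. Within H1, no gene besides Hist1h1c passed the filter, and Hist1h1e and Hist1h1d, linker genes that dividing cells use widely, had at most 15 and 12 counts in a library.

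Germ line histone genes had almost no reads. Hist1h1t, the testis H1, had 1 count in Het replicate 1 and none in the other libraries. Hist1h2ba and Hist1h2aa, the testis H2B and H2A, had 0 counts in every library, which allows up to 3 counts, or 0.0996 to 0.114 CPM in KO, 0.101 to 0.123 CPM in Het and 0.129 to 0.135 CPM in WT. These limits cover counting error only. Of other germ line genes, Prm2 and Tnp1 had 0 counts in every library. Ddx4 was present, at 1.39 ± 0.15 CPM in KO, 1.34 ± 0.75 CPM in Het and 0.457 ± 0.21 CPM in WT, and was called higher in KO (adjusted p = 0.0039) and in Het (adjusted p = 0.006). Dazl was at 0.328 ± 0.033, 0.634 ± 0.27 and 0.736 ± 0.14 CPM in KO, Het and WT and was called lower in KO (adjusted p = 0.022). These calls rest on few reads. Dazl had 9, 8 and 11 counts in KO, each below the filter's level, so it entered the test through Het and WT libraries. Ddx4 had 22, 27 and 64 counts in Het and 14, 5 and 12 in WT.

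**Figure D2:**
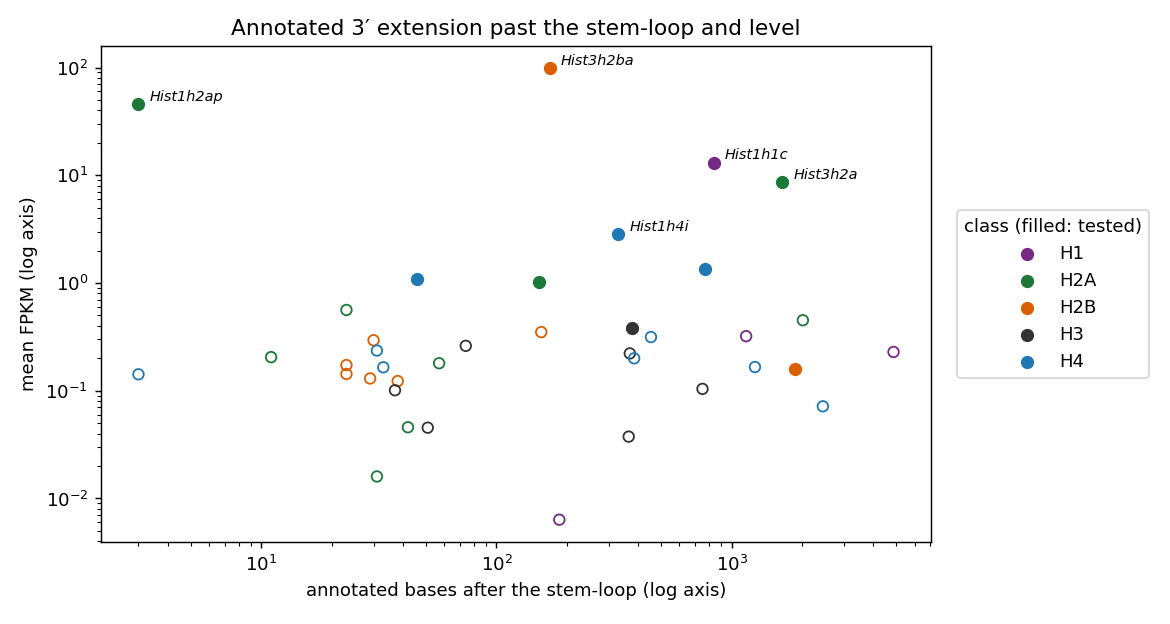
Annotated bases between the stem-loop and the 3′ end of the transcript (log axis) against mean FPKM over 9 libraries (log axis), for histone genes with a stem-loop match and at least 1 read, coloured by class. Filled points are genes that entered the test, of which 8 of 10 lie at 100 bases or more. Hist1h2ap, the highest of the others, lies at 3 bases. Entry depends on read counts, which rise with the counted length. For some genes the counted length was shorter than the annotated transcript, so the bases after the stem-loop may not have been counted.

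Among the genes with a stem-loop match, the 10 that entered the test had a median of 353.5 annotated bases after it (range 3 to 1861), and the 32 that did not had a median of 46.5 (range 3 to 4884). At least 100 bases followed it in 8 of the 10 and in 13 of the 32. Entry depends on read counts, which rise with the counted length. A gene with a longer counted transcript therefore enters more easily at the same level per length. Hist1h1c had 840 bases after the stem-loop, Hist3h2a 1643, Hist2h3c2 377, Hist1h4i 330 and Hist3h2ba 169. Hist1h2ap had 3, and 93.4% of its 31-base words also occur in transcripts of other genes, so how many of its reads came from a copy is uncertain. The annotation was itself built partly from RNA, so these lengths are a description. For Hist1h4d, Hist1h1d, Hist1h1e, Hist1h4c and Hist1h2ac, among others, the deposited FPKM values imply a counted length shorter than the annotated transcript. In such genes the bases after the stem-loop may not have been counted.

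Canonical H2A and H2B genes often start head to head from a shared stretch of promoter, and 12 such pairs, with under 1000 bases between their starts, were found. The sides of a pair could differ widely in level per length, but not in all pairs. The FPKM ratio was 1.23 for Hist1h2an and Hist1h2bp, and several pairs with few reads lay between 2.85 and 4.28. Hist2h2be, an H2B gene on chromosome 3, had 2.48 FPKM over the 9 libraries, and its partner Hist2h2ac, 238 bases away, had 0.18 FPKM. Hist1h2bc had 8.52 FPKM, and its partner Hist1h2ac, 250 bases away, had 0.451 FPKM. In counts, Hist1h2bc had 1551 over all libraries and Hist1h2ac had 53. Hist1h2bc has no match of the stem-loop in its annotated transcript of 1156 bases, whereas that of Hist1h2ac has 2010 bases after its own. For both genes the deposited FPKM values imply a counted length shorter than the annotated transcript. The bases after the stem-loop of Hist1h2ac may therefore lie outside what was counted.

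Upstream windows are shown for 2 of the genes whose change was called and for the Hist1h2ac and Hist1h2bc pair. They hold the 250 bases before the RefSeq start site (build GRCm38.p6), 5′ to 3′ on the gene's strand. Capitals mark matches, on either strand, to the TATA box (TATAAA), the CCAAT box (CCAAT), the octamer bound by POU factors (ATTTGCAT), the H1 box (AAACACA) and the E-box (CANNTG), the last being the class of site that bHLH factors such as TCF4 bind.
Hist1h1c (chr13:23738557-23738806, plus strand): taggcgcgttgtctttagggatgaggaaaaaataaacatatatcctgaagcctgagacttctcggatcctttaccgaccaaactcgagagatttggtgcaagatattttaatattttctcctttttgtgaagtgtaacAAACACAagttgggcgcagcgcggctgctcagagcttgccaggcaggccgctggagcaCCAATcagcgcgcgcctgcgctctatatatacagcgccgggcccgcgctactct
Hist1h2ac, facing Hist1h2bc (chr13:23683960-23684209, minus strand): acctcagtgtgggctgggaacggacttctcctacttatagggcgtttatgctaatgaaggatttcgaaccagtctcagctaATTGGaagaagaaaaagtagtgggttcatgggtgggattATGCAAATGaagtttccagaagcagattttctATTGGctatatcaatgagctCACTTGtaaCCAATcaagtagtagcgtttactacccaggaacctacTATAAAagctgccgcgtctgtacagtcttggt
Hist3h2ba (chr11:58948661-58948910, plus strand): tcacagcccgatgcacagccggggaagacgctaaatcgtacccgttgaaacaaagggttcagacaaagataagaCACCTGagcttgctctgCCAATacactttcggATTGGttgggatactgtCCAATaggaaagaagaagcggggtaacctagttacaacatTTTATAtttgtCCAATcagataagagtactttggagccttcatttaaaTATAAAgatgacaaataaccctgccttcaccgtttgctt
In the Hist1h1c window the H1 box began at position -112 and the CCAAT box at -54, counted back from the start site, and no E-box was found. The Hist1h2ac window held an octamer that overlaps an E-box, and the Hist3h2ba window had 4 CCAAT boxes and 1 E-box. Of 58 histone genes matched to a RefSeq window, 47 had a CCAAT box, against 33.8% of 32851 windows of all genes. For the octamer the figures were 11 of 58 against 1.60%, and for the TATA box 28 of 58 against 12.4%. The H1 box was in 4 of 5 windows of H1 genes, against 6.25%. An E-box was in 39 of 58 histone windows, against 66.2% of all windows. Windows of facing genes overlap, so they are not separate sequences, and a match is no proof of a site.

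**Figure D3:**
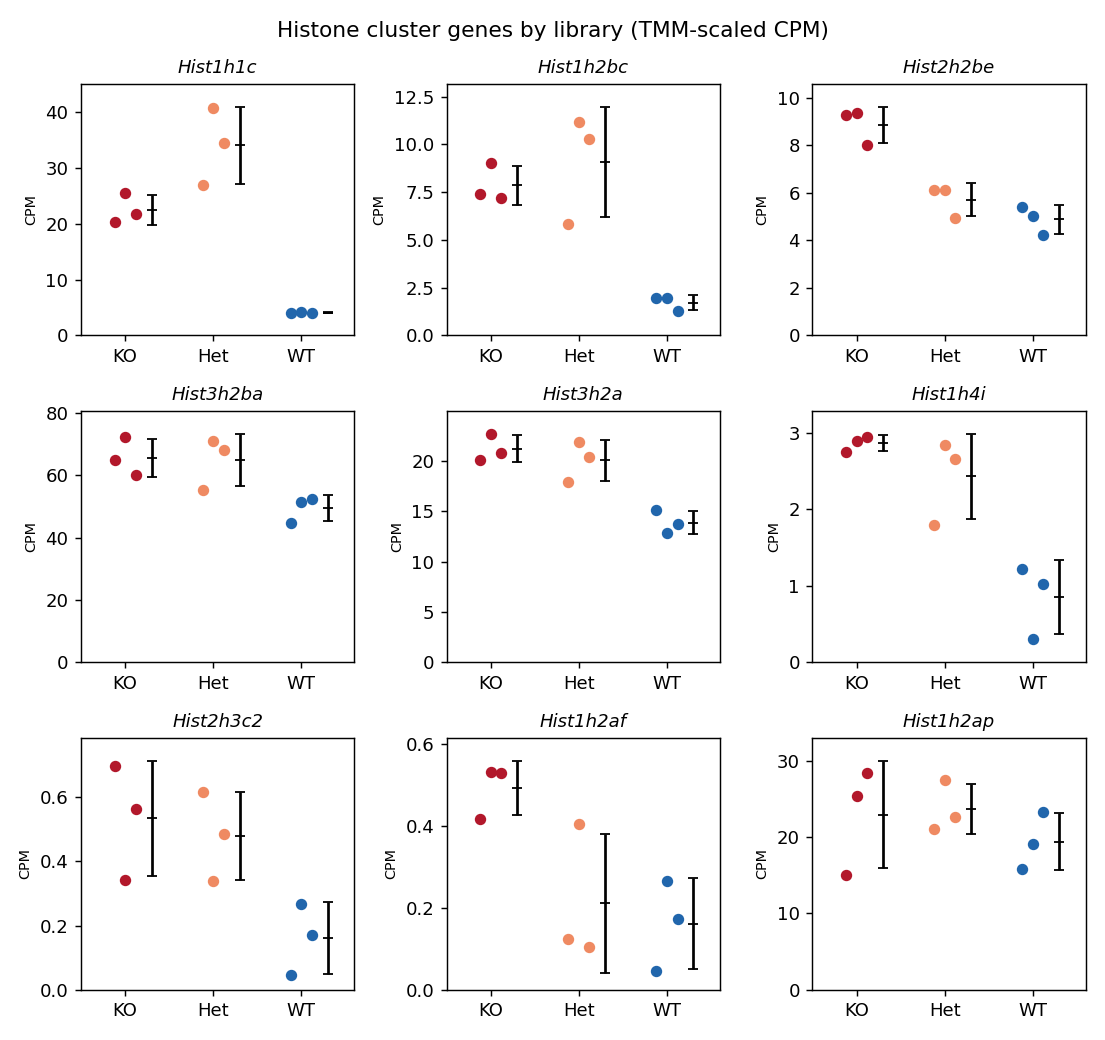
CPM in each library (points, replicates 1 to 3 from left to right), with mean ± SD beside them (n = 3), for the 8 histone genes called in at least 1 comparison and for Hist1h2ap. KO and Het libraries lie above all WT libraries in 6 of the 8 called genes, all but Hist2h2be and Hist1h2af. The 8 are shown because they were called, so this separation is largely set by the choice and is no further evidence. No overlap with WT, on the higher side, was found in 31.9% of all tested genes for KO and 26.8% for Het. Those shares take each comparison alone and are not limited to called genes.

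Compared with WT, KO tissue had more reads of the linker histone gene Hist1h1c (5.51-fold) and of H2A and H2B genes, and fewer of none of the 14 tested. For H3 and for H4, 1 gene each was called, and both needed KO or Het libraries to enter the test. The 8 genes called, at an adjusted p under 0.05 in edgeR's quasi-likelihood test over all 15271 tested genes, were Hist1h1c, the H2B genes Hist1h2bc, Hist2h2be and Hist3h2ba, the H2A genes Hist3h2a and Hist1h2af, the H3 gene Hist2h3c2 and the H4 gene Hist1h4i. All 8 were higher, and none of the 14 was lower, also at an unadjusted p under 0.05 or in DESeq2, which called 7 higher. Many other genes differed too, since 52.8% of all tested genes were called, 26.5% higher in KO and 26.3% lower, and DESeq2 called 24.9% higher. Of the 14, 7 reached the filter's level in all 3 WT libraries, and the other 7 needed KO or Het libraries to enter, so the count of higher genes is partly set by the filter. Among the 8 called, this holds for Hist1h4i, Hist1h2af and Hist2h3c2. The count also includes Hist1h1c, whose Het level against the same WT libraries was known when the genes were chosen.

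Hist1h1c encodes H1.2, a linker histone that sits where DNA enters and leaves the nucleosome. It had 20.3, 25.5 and 21.8 CPM in KO, 27.0, 40.8 and 34.5 CPM in Het and 4.06, 4.18 and 4 CPM in WT. Every KO and Het library lay above every WT library, and every Het library above every KO library. KO exceeded WT by 2.46 on the log2 scale (SE 0.15, adjusted p = 3.3e-08). Het exceeded WT by 3.06 (SE 0.15) and KO minus Het was -0.60 (SE 0.13). The high Het level was known when the genes were chosen, so these last values are given as a description, with no test. That choice set Het against these same WT libraries, so the p-value for KO versus WT is not independent of the choice. The gene shares 11.4% of its words with others and overlaps no annotated gene (chromosome 13, 23738808 to 23740367, plus strand).

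Hist1h2bc, an H2B gene of the same cluster (chromosome 13, 23684199 to 23692908), followed most closely in size. Its values were 7.39, 9.02 and 7.17 CPM in KO, 5.82, 11.2 and 10.3 CPM in Het and 1.94, 1.96 and 1.25 CPM in WT. The KO and Het groups overlap each other and lie above WT. KO exceeded WT by 2.19 on the log2 scale (SE 0.26, adjusted p = 1.4e-05) and Het exceeded WT by 2.41 (SE 0.26, adjusted p = 9e-06). KO minus Het was -0.22 (SE 0.22, adjusted p = 0.56). Its partner Hist1h2ac did not enter the test, with 8, 6 and 10 counts in KO, 7, 10 and 8 in Het and 0, 3 and 1 in WT.

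Hist2h2be had another order. It had 9.27, 9.36 and 8 CPM in KO, 6.10, 6.12 and 4.94 CPM in Het and 5.42, 5.03 and 4.22 CPM in WT. The KO libraries lay above the rest, and Het and WT overlapped. KO exceeded WT by 0.86 on the log2 scale (SE 0.14, adjusted p = 7.7e-05) and Het by 0.63 (SE 0.14, adjusted p = 0.0043). Het minus WT was 0.23 (SE 0.14, adjusted p = 0.21). At 2.82% it was the 1 tested histone gene with under 5% of its words shared with other genes. Among all genes under that limit 54.6% were called for KO versus WT, 47.1% for Het versus WT and 19.2% for KO versus Het.

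The Hist3 genes on chromosome 11 had small changes. Hist3h2ba had 64.9, 72.2 and 60.1 CPM in KO, 55.3, 71.2 and 68.3 CPM in Het and 44.8, 51.6 and 52.3 CPM in WT, with the lowest KO and Het libraries above the highest WT library. It was 1.33-fold higher in KO (log2 fold change 0.41, SE 0.10, adjusted p = 0.0032) and 1.31-fold higher in Het (0.39, SE 0.10, adjusted p = 0.0053) than in WT. Hist3h2a had 20.1, 22.7 and 20.8 CPM in KO, 17.9, 21.9 and 20.4 CPM in Het and 15.1, 12.8 and 13.7 CPM in WT, again without overlap with WT. It was 1.52-fold higher in KO (adjusted p = 4.8e-05) and 1.45-fold higher in Het (adjusted p = 2.4e-04). Hist3h2ba stayed below a fold of 1.5 in KO and both genes did so in Het. Hist3h2a overlaps Trim17 on its own strand and Gm44313 on the other, whose reads may be counted with it.

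The H4, H3 and remaining H2A calls rest on few reads. Hist1h4i had 79, 76 and 89 counts in KO, 44, 84 and 77 in Het and 27, 7 and 24 in WT. WT replicate 2 was the lowest of all. KO exceeded WT by 1.74 on the log2 scale (SE 0.31, adjusted p = 2.6e-04), and Het did so by 1.51 (SE 0.32, adjusted p = 0.0012). Hist2h3c2 had 20, 9 and 17 counts in KO, 15, 10 and 14 in Het and 1, 6 and 4 in WT. KO exceeded WT by 1.70 on the log2 scale (SE 0.53, adjusted p = 0.012), and Het did so by 1.52 (SE 0.55, adjusted p = 0.031). The first call was lost without KO replicate 1 (1.47, adjusted p = 0.058) or WT replicate 1 (1.28, adjusted p = 0.062), and the second was lost without Het replicate 1 or 3 or WT replicate 1 or 3 (adjusted p from 0.064 to 0.12) and in DESeq2 (adjusted p = 0.058). Hist1h2af had 12, 14 and 16 counts in KO, 3, 12 and 3 in Het and 1, 6 and 4 in WT, and KO exceeded WT by 1.58 on the log2 scale (SE 0.58, adjusted p = 0.031). That call was lost in DESeq2 and without KO replicate 2 or 3 or WT replicate 1 or 3 (adjusted p from 0.070 to 0.13). Hist2h3c2 and Hist1h2af share 64.2% and 85.9% of their words with other genes, and Hist1h2af overlaps Gm44297 on the opposite strand. The other 6 called genes share under 50%.

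**Figure D4:**
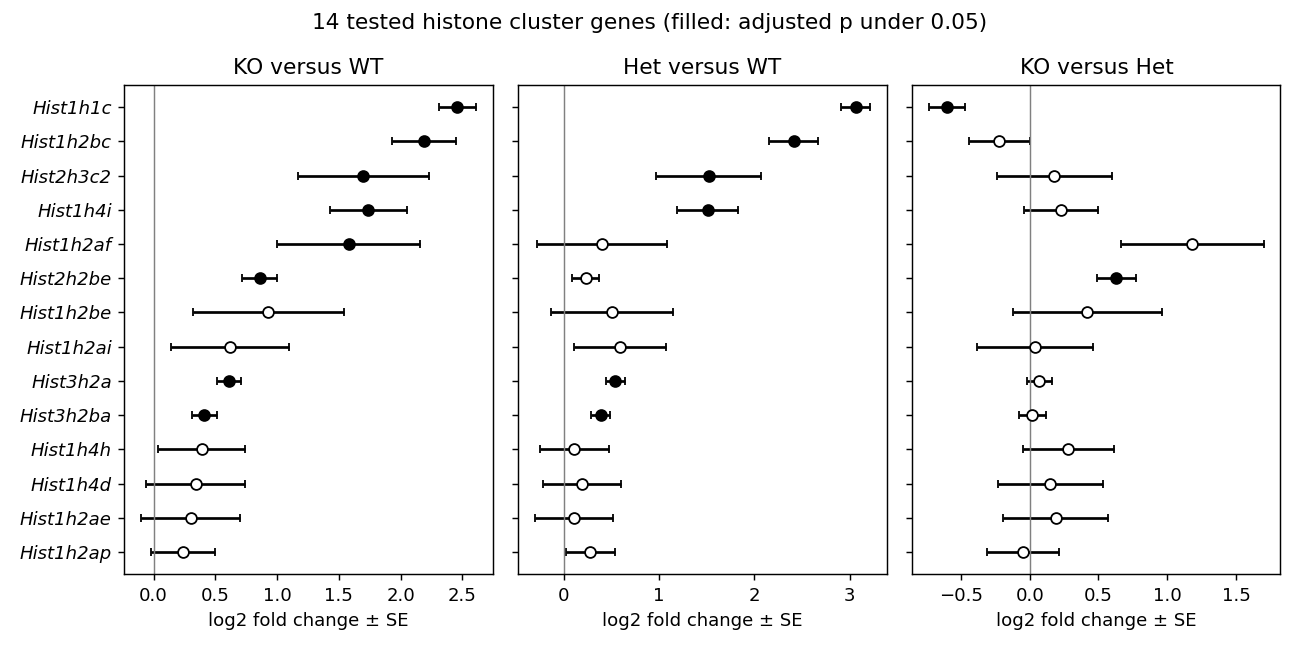
Log2 fold change ± SE of the 14 tested histone genes in KO versus WT, Het versus WT and KO versus Het (log2 axes of different range). Filled points are called at adjusted p under 0.05. The 14 points of each of the first 2 panels lie to the right of 0, where the median of all tested genes was 0.01. Only 7 of the 14 reached the filter's level in all 3 WT libraries. The rest needed KO or Het libraries to enter, which favours this side. Hist1h1c and Hist2h2be are the only filled points of the third panel. The Het level of Hist1h1c was known when the genes were chosen, so its points in the Het panels are a description.

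The 6 other tested genes were not called in any comparison. Hist1h2ap, at 15, 25.4 and 28.4 CPM in KO, 21, 27.4 and 22.6 CPM in Het and 15.8, 19.1 and 23.3 CPM in WT, had overlapping groups and a log2 fold change of 0.24 for KO versus WT (SE 0.26, adjusted p = 0.49). It also overlaps Gm44466 on the opposite strand. Hist1h2ae, Hist1h2ai, Hist1h2be, Hist1h4d and Hist1h4h had mean levels of 0.428 to 0.604 CPM in KO and 0.254 to 0.473 CPM in WT, with log2 fold changes from 0.30 to 0.93, standard errors from 0.35 to 0.61 and adjusted p from 0.21 to 0.55. A p that misses the threshold does not show that their levels were alike.

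Het tissue differed from WT in the same direction. Of the 14 tested genes 6 were called higher (Hist1h1c, Hist1h2bc, Hist1h4i, Hist2h3c2, Hist3h2a and Hist3h2ba) and none lower, also at an unadjusted p under 0.05 or in DESeq2, which called 5 higher. Over all tested genes 45.9% were called, 22.5% higher and 23.4% lower, and DESeq2 called 21.1% higher. The count of 6 includes Hist1h1c, whose place there is a description only, since its Het level was known when the genes were chosen. It also includes Hist1h4i and Hist2h3c2, which fell below the filter's level in some WT library. The Het and KO comparisons share their WT libraries, so they are not separate evidence. Between KO and Het, Hist2h2be was called higher in KO, beside 16.7% of all tested genes called (8.3% higher and 8.44% lower). Hist1h1c also passed the threshold, lower in KO. Its Het level served in the choice of the genes, so that is given as a description. For Hist3h2ba and Hist3h2a the KO versus Het difference was 0.02 (SE 0.10) and 0.07 (SE 0.09) on the log2 scale.

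The 50 genes below the filter added up to 4.77, 5.10 and 4.11 CPM in KO, 3.85, 5.17 and 5.43 CPM in Het and 2.53, 2.76 and 3.57 CPM in WT. The sums of KO and Het lay above those of WT. Hist1h3c, an H3 gene, had 6, 7 and 5 counts in KO, 3, 6 and 5 in Het and 0 in each WT library. Set against 3 counts over the WT group, its summed counts, scaled to library size, were 4.79-fold higher in KO and 3.82-fold higher in Het. These ratios leave out the counting error of the KO and Het counts, so they are not lower limits. Hist1h3c was also chosen after its counts were seen. Without a filter, Hist1h3c and Hist1h2ac were also called in both comparisons with WT, and Hist1h4m (4, 5 and 2 counts in Het, 0 in each WT library) in Het versus WT. That fit called 17.9% of all its genes higher in KO and 15.4% higher in Het.

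By histone class, the summed CPM of KO lay above the WT range for all classes except H2A. H1 genes summed to 20.8 to 26.0 CPM in KO, 27.5 to 41.6 CPM in Het and 4.38 to 4.5 CPM in WT. H2B genes summed to 76.5 to 92.0, 68.0 to 89.6 and 53.1 to 59.1 CPM in KO, Het and WT, and H4 genes to 5.11 to 5.63, 3.97 to 5.85 and 2.14 to 3.11 CPM. H3 genes summed to 1.37 to 1.67 CPM in KO, 0.947 to 1.69 CPM in Het and 0.542 to 0.860 CPM in WT. H2A sums of KO (37.3 to 52.1 CPM) and WT (32.0 to 38.7 CPM) overlapped, and those of Het were 40.7 to 51.3 CPM. Single genes described above made up much of these sums. In KO replicate 1, Hist1h1c gave 20.3 of the 20.8 CPM of H1 and Hist3h2ba 64.9 of the 82.9 CPM of H2B. Hist1h4i gave 2.75 of the 5.37 CPM of H4 there. No overlap with WT, on the higher side, was found in 31.9% of all tested genes for KO. No test was made of these sums.

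Neighbours of the histone genes in the Hist1 span of chromosome 13 were also measured. The span from 21715763 to 23934851 holds 52 of the histone genes and 45 other protein-coding genes, of which 4 were tested. The zinc finger gene Zfp184 was at 19.3 ± 1.9 CPM in KO, 18.0 ± 0.48 CPM in Het and 9.69 ± 1.3 CPM in WT, with adjusted p = 7.2e-07 for KO and adjusted p = 4.1e-06 for Het. Abt1 was higher by 0.36 in KO (SE 0.09) and 0.40 in Het (SE 0.09) on the log2 scale, and Zfp322a by 0.38 in KO (SE 0.10). Hfe, an iron regulator gene between Hist1h2bc and Hist1h1c, had 0.799 ± 0.0026 CPM in KO, 1.39 ± 0.17 CPM in Het and 0.972 ± 0.30 CPM in WT and was not called (log2 fold change -0.28, adjusted p = 0.43 for KO versus WT).

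Genes that surround histone supply were measured as well. Replacement histones are made outside S phase as well, mostly from ordinary polyadenylated mRNAs. They were higher in KO for 10 of 11 genes and in Het for 8 of 11. None was lower in either, also at an unadjusted p under 0.05 and in DESeq2. Over all tested genes 26.5% were called higher in KO and 22.5% in Het. Their median log2 fold change was 0.50 for KO and 0.29 for Het, and that of all tested genes was 0.01 in each. H1f0, the replacement linker histone of differentiating cells, which overlaps Gm49544 on the opposite strand, was at 451 ± 14 CPM in KO, 359 ± 19 CPM in Het and 181 ± 3.4 CPM in WT. KO exceeded Het by 0.33 on the log2 scale (SE 0.05, adjusted p = 4.1e-04). H3f3b, which encodes H3.3, was at 1029 ± 9.6 CPM in KO, 1044 ± 38 CPM in Het and 632 ± 25 CPM in WT, and Cenpa, the centromeric H3, at 15.1 ± 1.4, 11.1 ± 0.84 and 7.07 ± 0.56 CPM in KO, Het and WT. H2afx was not called (0.15, SE 0.07, adjusted p = 0.092 for KO versus WT).

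Of 16 genes that transcribe histone genes or process the ends of their mRNAs, 12 were higher and 1 lower in KO, and 5 higher and 1 lower in Het. The shares over all tested genes were 26.5% higher and 26.3% lower in KO, and 22.5% higher and 23.4% lower in Het, so the Het count was nearer to that of all genes. Npat, the coactivator of histone gene transcription, had a log2 fold change of 0.74 in KO (SE 0.09) and 0.49 in Het (SE 0.09). Slbp, the stem-loop binding protein gene, which overlaps Gm10459 on the opposite strand, was at 34.9 ± 1.8 CPM in KO, 27.5 ± 0.24 CPM in Het and 26.6 ± 1.1 CPM in WT (KO versus Het 0.35, SE 0.07, adjusted p = 0.0024). Lsm11, a U7 particle subunit, was the 1 lower gene, at 85.2 ± 5.6 CPM in KO, 85.3 ± 5.2 CPM in Het and 126 ± 10 CPM in WT. Of 22 histone chaperone genes 13 were higher and 2 lower in KO, and 8 higher and 3 lower in Het, where 45.9% of all tested genes were called in either direction. Hjurp, the chaperone of the centromeric histone, was at 69.2 ± 3.2 CPM in KO, 63.9 ± 3.7 CPM in Het and 18.1 ± 1.0 CPM in WT, and Nasp, which escorts new H3 and H4, at 140 ± 3.9, 107 ± 8.6 and 82.9 ± 2.4 CPM.

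Of 24 S-phase genes 20 were higher in KO and 16 in Het, beside 26.5% and 22.5% of all tested genes, and none was lower in either, also at an unadjusted p under 0.05 and in DESeq2. Examples in KO versus WT are the licensing factor Cdt1 (1.12, SE 0.11) and thymidine kinase Tk1 (1.11, SE 0.14), both of which overlap other annotated genes. The summed S-phase level was 666 to 697 CPM in KO, 591 to 613 CPM in Het and 452 to 458 CPM in WT. In bulk tissue a change in the number of cells of a type and a change in RNA per cell cannot be told apart.

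Other measures also differed between the genotypes. Tcf4, counted over the whole gene, was at 627 ± 15 CPM in KO, 731 ± 86 CPM in Het and 674 ± 79 CPM in WT and was not called in any comparison, which checks nothing if the deleted part is small. Markers of cortical excitatory neurons were present, summing to 2062 to 2152 CPM in KO, 1983 to 2278 in Het and 1725 to 1984 in WT, and went both ways, with 2 of 6 higher and 2 lower in each of KO and Het. Slc17a7, a glutamate transporter of mature neurons, was at 62.5 ± 5.1 CPM in KO, 108 ± 0.8 CPM in Het and 212 ± 4.9 CPM in WT, and the neuronal transcription factor Neurod6 at 687 ± 50, 626 ± 69 and 381 ± 49 CPM. All 5 intermediate progenitor markers were higher in KO (summed 197 to 213 CPM in KO, 111 to 122 in Het and 41.9 to 45.5 in WT). Radial glia markers summed to 1043 to 1112 CPM in KO, 942 to 1051 in Het and 1003 to 1072 in WT, with 3 of 6 higher and 1 lower in KO and 3 higher and 2 lower in Het. Of 12 erythroid genes measured, 6 were tested, of which 1 was higher in KO, and 1 was higher and 2 lower in Het. Their sums overlapped between all genotypes (292 to 369 CPM in KO, 210 to 307 in Het and 190 to 363 in WT). The sums hide Hba-a2, an alpha globin gene with 1672 to 2377 counts in KO, 1179 to 1737 in Het and 48 to 115 in WT, and its near-identical copy Hba-a1 with 2105 to 3171, 1604 to 2056 and 2139 to 3721 counts, between which reads may be split. Striatal neuron markers summed to 41.2 to 43.9 CPM in KO, 51.3 to 61.5 in Het and 231 to 249 in WT, with 5 of 6 lower in KO and 6 of 6 lower in Het. Astrocyte markers summed to 180 to 212, 236 to 276 and 545 to 591 CPM in KO, Het and WT, with 4 of 5 lower in each. All 5 oligodendrocyte lineage and all 5 microglia markers were lower in KO and in Het, and microglia markers summed to 41.1 to 42.1, 37.3 to 40.2 and 79.2 to 89.7 CPM. Interneuron markers had 4 of 6 lower and 1 higher in each, and endothelial markers had 3 of 5 higher in KO and 5 of 5 in Het. Choroid plexus markers had 2 of 5 higher in KO and 1 in Het, and meningeal markers had 2 of 5 higher in KO and 3 in Het. The choroid plexus gene Ttr had 662, 662 and 209 counts in KO, 4, 209 and 454 in Het and 16, 23 and 1 in WT. Mitochondrial genes took 0.716% to 0.771% of counts in KO, 0.769% to 0.84% in Het and 1.01% to 1.14% in WT.

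Processed pseudogenes took 0.0647% to 0.0782% of counts in KO, 0.0745% to 0.0834% in Het and 0.225% to 0.276% in WT, which sets WT libraries apart. Annotated small noncoding RNAs, which mostly lack a poly(A) tail, took 0.00441% to 0.00491% in KO, 0.00430% to 0.00529% in Het and 0.00428% to 0.00451% in WT. Of single such RNAs, Rpph1 had 13 to 26 counts in KO, 21 to 36 in Het and 0 in each WT library, and Rn7sk had 173 to 213, 142 to 309 and 206 to 289 counts in KO, Het and WT. KO replicate 3 was the only library with many Xist reads (2730 counts), and without it the 7 calls of KO versus WT other than Hist1h2af held. The part of these measures and of the cell type markers in the histone changes was not tested.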

How the data were processed

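The authors deposited raw read counts and FPKM values per Ensembl gene for 9 libraries. Per the labels, total RNA was extracted with a column kit and libraries were made with NEBNext Ultra. The submitters' processing notes name DESeq 1.10.1, HTSeq 0.6.1, TopHat2 2.0.9 and Bowtie2 2.0.6 beside build mm10, with no role for each. The treatment of strand and of reads matching several genes was not given in the sources used here. The deposited FPKM values are the counts divided by length and library total, and served for levels between genes and for the limma alternatives. The lengths they imply are shorter than the GENCODE M21 transcripts for some histone genes.

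Symbols came from GENCODE M21 (40254 of 41128 genes). Counts were fitted with edgeR 4.0.16 in R 4.3.3 (filterByExpr with minimum count 10, TMM factors, a robust quasi-likelihood fit with the 3 genotypes as terms over the 9 libraries, Benjamini-Hochberg adjustment over 15271 genes). The SE is the log2 fold change divided by the square root of F. Alternatives included DESeq2 1.42.0 and limma 3.58.1 on log2(FPKM + 1). The fit was tried on counts simulated from its own estimates of spread, with 66 or 67 genes changed at each of 3 folds. In each comparison it recovered 59.7% of the 1.5-fold changes, and 97% to 98.5% of the 4-fold changes. There were 8 to 11 false calls. Far fewer genes were changed there than were called in these data, so it does not check calls at that share. Shared words are 31-base words of a gene's transcripts found in another gene.

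Members and lists were chosen with earlier results of these data known. Named genes were Hist1h1c, every called histone gene, the highest and lowest of each class, Tcf4, called neighbours in the Hist1 span and up to 4 called genes per list and comparison, of which part is printed. Other names, among them Rpph1, H2afx, Hfe, Hist1h2ac, Hist1h3c and Hist1h4m, were chosen after values were seen.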

Additional observations from a re-analysis of the deposited data

How the results depend on the processing

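A call was taken to hold if it kept its direction and its side of the threshold. Calls for Hist1h2bc, Hist1h4i, Hist3h2a and Hist3h2ba against WT held under every alternative that could be fitted except a fold of at least 1.5. The calls of Hist2h2be for KO versus WT and KO versus Het held too. Hist1h1c kept its direction in the 3 comparisons. That is a description, since the choice of genes used its Het and WT levels. With only genes under 5% shared words, 1 histone gene (Hist2h2be) was left to test, so the histone calls were 1 for KO versus WT, 0 for Het versus WT (edgeR, Hist2h2be at an adjusted p of 0.21 over all genes) and 1 for KO versus Het. Below a fold of 1.5 were Hist3h2ba for KO versus WT and Hist3h2ba and Hist3h2a for Het versus WT. With a fold of at least 1.5, 3420, 2518 and 735 of all genes were called in the 3 comparisons. Leaving out 1 library gave 1432 to 2561 calls for KO versus Het, with 1467 without KO replicate 1 and 1432 without KO replicate 2, against 2556. Differences that were not called changed sign for Hist1h2af in Het versus WT (-0.49 without Het replicate 2, -0.02 without WT replicate 1, up to 0.94), and in KO versus Het for Hist3h2ba (-0.06 without KO replicate 2, -0.09 without Het replicate 1, up to 0.08), Hist3h2a (-0.01 without Het replicate 1, up to 0.13) and Hist2h3c2 (-0.05 without KO replicate 1, -0.03 without Het replicate 2, up to 0.41). Hist1h2af was called in KO versus Het without Het replicate 2 (2.08, adjusted p = 0.044). The cause was not tested. Replicate numbers did not pair the libraries (correlations of deviations from -0.106 to 0.0844), and the replicate block left 8, 6 and 2 histone calls. Genes with under about 10 reads per library are limited by depth.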
